A study of Mus musculus with 70 samples.

Results

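CD45+ cells, the blood-derived immune cells, were flow-sorted from histotripsy-treated B16F10 tumors 7 days after ablation (3 libraries) and compared with the same fraction from histotripsy-treated tumors 3 days after ablation (6 libraries). These 9 libraries, chosen by their labels for treatment, day and cell fraction, are among the 34 CD45+ libraries and the 70 libraries of the series. B16F10 is a mouse melanoma line, grown here under the skin of both flanks of male and female C57BL/6 mice that were 6 to 8 weeks old at purchase. Histotripsy is a form of focused ultrasound that destroys tissue by mechanical force rather than heat, and the treated tumor was ablated only in part, so its immune cells come from ablated and intact tissue together. The control groups had the same tumors and a sham ablation (4 libraries on day 3 and 10 on day 7), and the histotripsy-abscopal groups are the unablated tumors on the flank opposite a treated tumor (7 and 4 libraries). No drug or antibody is named for any of these groups. Mice were not assigned at random. The sex of the mouse, the sequencing batch and the mouse itself are not known for a library, and each day was deposited as a table of its own, so the day of harvest cannot be told apart from anything else that differed between the tables. Nothing in the labels says that libraries of a group came from separate mice, so p-values measure the spread between these libraries, some of which may be technical.

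Sterile tissue damage is known to draw neutrophils first, guided by Cxcr2-binding chemokines and by interleukin-1 and Tnf, which act through NF-kB. Inflammatory monocytes follow and mature into macrophages, while feedback inhibitors that NF-kB itself induces shut the signal down. Dendritic cells carry antigen to T cells, and plasmacytoid dendritic cells make type I interferon. The comparison asks how far the early response to ablation had gone by day 7.

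Library depth was 1186404 to 1658775 counts on day 3, and 2739931, 972363 and 2378144 counts in replicates 1, 2 and 3 on day 7. Levels below are counts per 1000000 (CPM) scaled by the trimmed mean of M-values (TMM), QuantSeq reads the 3′ end of each transcript so that levels do not scale with length, and each fold change is a log2 difference, day 7 minus day 3, with its standard error. Ptprc, which encodes CD45, was at 930.4 ± 141 CPM (SD, n = 6) on day 3 and 958 ± 74.1 CPM (SD, n = 3) on day 7. Melanoma markers summed to 199.7 to 649.7 CPM on day 3 and 286 to 468 CPM on day 7. Of the 9 tested ones 0 passed the test given below, with 8 on the lower side, 1 on the higher and a median of -0.27. Replicate 3 of day 3 stood apart from the other 5: its neutrophil markers summed to 42158 CPM, its red cell markers to 9771 CPM and its platelet markers to 1728 CPM, and its TMM factor was 0.747 against 0.889 to 1.04 in the others. In principal components of the 500 most variable genes over the 9 libraries, the leading component took 39.95% of the variance and placed 5 of the 6 day 3 libraries on one side of all day 7 libraries, the exception being replicate 5, and all 6 with 1000 genes.

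Of 11249 genes tested, 463 differed between day 7 and day 3 in treated tumors, which is 4.12% of them (edgeR quasi-likelihood test, Benjamini-Hochberg adjusted p below 0.05). Genes that fell outnumbered those that rose: 372 were lower on day 7 (3.31% of genes tested) and 91 higher (0.809%). In control tumors the same test between the days called 1 gene (0.00889%), the predicted gene Gm15564, which was lower on day 7 and was high in 1 control library of day 3. The difference of the day change between treated and control tumors was called for 300 genes (2.67%), of which 271 (2.41%) changed more downward in treated tumors and 29 (0.258%) more upward. Scaling by library totals instead of TMM moved the median of all genes from 0.01 to 0.19 on the log2 scale and gave 506 calls, 282 higher and 224 lower, so the balance between directions depended on the scaling. The number of calls also rested on single libraries: it was 46 without replicate 3 and 57 without replicate 1 of day 7, 275 without replicate 6 and 281 without replicate 3 of day 3, and 784 without replicate 5 of day 3. A fit to the 9 treated libraries alone called 10 genes with the spread estimated from those libraries only. Of the 51 named genes that were called, 7 were called with each of the 9 libraries left out in turn (C3, Egfr, Gm15728, Gm48786, Gpr84, Ppm1k and Slc1a2).

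Most of the difference between treated and control tumors on day 3 was not seen on day 7. On day 3, 842 genes were higher in treated than in control tumors (7.49% of genes tested) and 315 lower (2.8%), and on day 7 the same test called 0 genes, with 298 at an unadjusted p under 0.05 and 0 called by DESeq2 or by limma-voom. The 842 genes had a median difference of 1.15 on day 3 and -0.10 on day 7, on the log2 scale, and 276 of them (32.8%) were still on the higher side on day 7. The 315 genes went from a median of -0.77 to -0.05, with 189 (60%) still on the lower side. Scaled by library totals, the day 3 calls were 560 higher and 1183 lower. The 1157 calls of day 3 became 651 and 691 without replicates 3 and 4 of the controls and 739 without replicate 3 of the treated libraries. Of the 842 genes 7 kept a difference on day 7 at least 0.5 times that of day 3, among them Il1rl1, the receptor for interleukin-33 (log2 difference 1.79 on day 3 and 0.93 on day 7), a gene chosen after its values were seen. Of the 315 lower genes 16 (5.08%) did, and the 7 are 0.831% of the 842. These shares were not tested against each other, and the day 3 differences that set the cut were smaller in the 315 genes, as their median shows. Genes selected by a threshold on day 3 tend to have their day 3 differences overstated, while the day 7 values come from other libraries. A call of 0 genes on day 7 does not show that none differed.

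**Figure D1:**
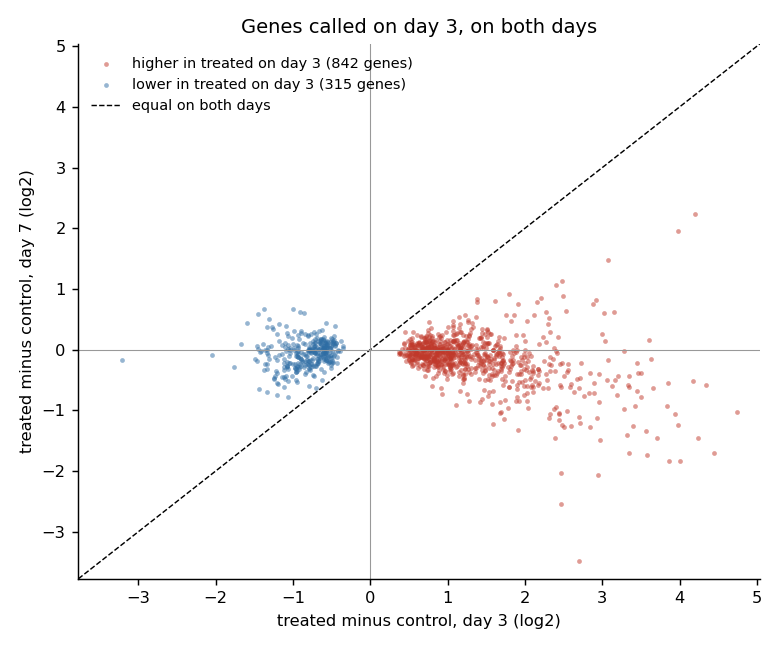
Each point is a gene called between treated and control tumors on day 3, plotted as the log2 difference on day 3 (horizontal axis) and on day 7 (vertical axis). The 842 genes that were higher and the 315 that were lower on day 3 lie around 0 on day 7, and 7 of the 842 and 16 of the 315 reach at least 0.5 times their day 3 difference.

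Several neutrophil genes fell. All 17 marker genes of neutrophils were on the lower side on day 7, with a median of -2.18 against 0.01 over all genes tested, and 6 of them passed the test, beside 3.31% of all tested genes called lower (Il1r2, Mmp9, Lcn2, Hdc, Stfa2l1 and Trem1). Fewer neutrophils and less of these RNAs in each neutrophil cannot be told apart in bulk samples. The summed level of the 17 markers was 2247 to 42158 CPM in the treated libraries of day 3, 1158 to 4663 CPM on day 7 and 1998 to 6749 CPM in the control libraries of day 7. Mmp9 (chr2:164940780-164955850, GRCm38), the gelatinase that neutrophils carry in their granules, had 48.04, 104 and 395 CPM as the lowest, median and highest of the day 3 libraries and 11.5, 36.98 and 36.3 CPM in replicates 1, 2 and 3 of day 7. It fell by 2.56 ± 0.62 on the log2 scale (adjusted p = 0.0147), and the groups did not overlap. Il1r2, the decoy receptor that soaks up interleukin-1, had 269.5, 619.9 and 1324 CPM on day 3 and 162, 265 and 207 CPM on day 7. It fell by 1.71 ± 0.35 on the log2 scale (adjusted p = 0.00468), again with no overlap, and in control tumors it stayed between 160.5 and 375 CPM on both days.

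Lcn2, the siderophore-binding lipocalin of neutrophil granules, fell by 3.69 ± 0.93 on the log2 scale (adjusted p = 0.0190), but its groups overlapped. Replicates 3 and 6 of day 3 held 438 and 411 CPM, the other 4 held 4.37 to 36.4 CPM, and day 7 held 3.49, 30.8 and 10.1 CPM. The most abundant neutrophil RNAs did not pass the test. S100a8, which encodes a subunit of calprotectin, had 766, 2853 and 19282 CPM on day 3 and 405, 1948 and 1085 CPM on day 7 (-2.22 ± 0.74, adjusted p = 0.0793), and its partner S100a9 had a log2 difference of -2.39 ± 0.81 (adjusted p = 0.0838). For both, replicate 3 of day 3 was the highest library by a wide margin, and without it the log2 difference was -1.15 for S100a8 and -1.03 for S100a9. Csf3r, the receptor for granulocyte colony stimulating factor, and Cxcr2, the chemokine receptor of neutrophils, gave -1.44 ± 0.55 (adjusted p = 0.125) and -1.56 ± 0.61 (adjusted p = 0.138). The 6 calls among neutrophil markers became 2 without replicate 3 of day 3, 4 without replicate 6 of day 3 and 0 without replicate 1 or replicate 3 of day 7, and 10 without replicate 5 of day 3.

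**Figure D2:**
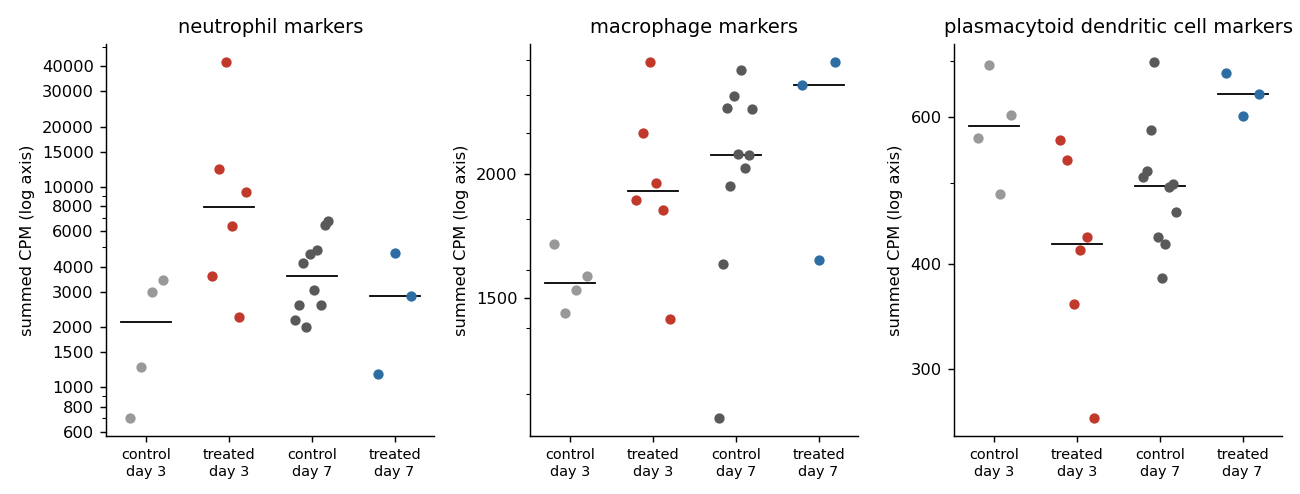
Points are CD45+ libraries, placed by group on the horizontal axis, and the vertical log axis gives the summed CPM of marker genes of neutrophils, macrophages and plasmacytoid dendritic cells, with the group median as a line. Treated libraries of day 3 span 2247 to 42158 CPM for neutrophil markers, and the 3 treated libraries of day 7 lie above all 6 of day 3 for plasmacytoid dendritic cell markers.

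Chemokines and their receptors gave 1 call higher and 2 lower in the lists below, beside 0.809% and 3.31% of all tested genes. Among 8 tested neutrophil chemokines and their receptors all were on the lower side, with a median of -1.71, and 1 was called: Ccrl2, an atypical receptor that presents chemerin, fell by 1.16 ± 0.29 on the log2 scale (adjusted p = 0.0192). Cxcl2, a main ligand of Cxcr2, was the most abundant chemokine of the fixed genes, with 3898, 10718 and 30292 CPM on day 3 and 2714, 4882 and 4099.8 CPM on day 7. Its log2 difference of -1.73 ± 0.59 did not pass (adjusted p = 0.0889), and the groups overlapped. Among 14 CC chemokines and receptors of monocytes, Ccl3, an inflammatory chemokine of macrophages, fell by 1.27 ± 0.36 on the log2 scale (adjusted p = 0.0388), while Ccr2, the receptor that brings inflammatory monocytes into tissue, rose. Ccr2 had 257, 396 and 575 CPM on day 3 and 711, 477 and 919 CPM on day 7, a change of 0.81 ± 0.22 (adjusted p = 0.0275), with replicate 2 of day 7 inside the range of day 3. Monocyte markers as a list did not rise with it: of 10 tested, 1 was called higher (Ccr2) and 2 lower (Chil3 and Hp), with a median of 0.07. Csf1, the growth factor of macrophages, fell by 2.19 ± 0.57 on the log2 scale (adjusted p = 0.0239), from 36.8, 138 and 299 CPM to 21.6, 55.5 and 27.8 CPM, with overlap through replicate 2 of day 7. It is not a chemokine, and was the 1 gene called of 8 tested in the list of the interleukin-6 family, colony stimulating factors and Socs3, whose median was -0.21.

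In the interleukin-1 family and inflammasome list, 5 of 13 tested genes fell, beside 3.31% of all tested genes, and 0 rose, with a median of -0.74. Besides Il1r2 these were Casp4, the caspase that senses intracellular lipopolysaccharide, which fell by 1.14 ± 0.25 on the log2 scale (adjusted p = 0.00782), Il1rap, the shared signaling subunit of interleukin-1 receptors, which fell by 1.58 ± 0.43 on the log2 scale (adjusted p = 0.0277), the inflammasome sensor Nlrp3 (-1.67 ± 0.46, adjusted p = 0.0321) and Il18rap, a subunit of the interleukin-18 receptor (-0.86 ± 0.25, adjusted p = 0.0448). Of the 5, Il1r2 is a decoy that limits interleukin-1 signaling. Casp4 had 80.5, 131 and 190.5 CPM on day 3 and 49.9, 68.8 and 64.2 CPM on day 7, without overlap. The cytokines themselves did not pass: Il1b had 3681, 6179.9 and 10937 CPM on day 3 and 5022, 4969.7 and 3074 CPM on day 7 (-0.67 ± 0.28, adjusted p = 0.162), and Tnf gave -0.65 ± 0.33, adjusted p = 0.271. The day 7 values of both lay within the range of day 3 or just below it. The 5 calls became 0 without replicate 1 or replicate 3 of day 7, and 2 without replicate 3 or 3 without replicate 6 of day 3.

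Genes of the Tnf and NF-kB feedback list fell in 6 of 19 cases, beside 3.31% of all tested genes, and rose in 0, with a median of -0.70. The 6 were Tnip1, which binds A20 and restrains NF-kB, the Tnf-induced Tnfaip2, the adhesion molecule Icam1, the RNase Zc3h12a, the inhibitor Nfkbie and the NF-kB subunit Nfkb1. Tnfaip2 had 399.9, 1027 and 1895 CPM on day 3 and 336, 353 and 288 CPM on day 7, and it fell by 1.64 ± 0.33 on the log2 scale (adjusted p = 0.00426). Icam1 had 24.3, 45.6 and 84.96 CPM on day 3 and 14.3, 16.4 and 17.8 CPM on day 7, and it fell by 1.62 ± 0.35 on the log2 scale (adjusted p = 0.00613). For both genes each day 7 library was below each day 3 library, and within the range of the day 7 control libraries (199 to 456 and 8.75 to 33.03 CPM). Nfkb1 was at the edge of the threshold (-0.70 ± 0.21, adjusted p = 0.0499). The 6 calls became 2 without replicate 1 and 0 without replicate 3 of day 7, 4 without replicate 2 of day 7 or replicate 3 of day 3, and 9 and 11 without replicates 4 and 5 of day 3.

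Tnip1 (chr11:54910785-54962917, GRCm38, minus strand) showed the smallest p of the list. It had 293, 397 and 726 CPM on day 3 and 210.0, 224 and 152 CPM on day 7, with no overlap, and it fell by 1.19 ± 0.23 on the log2 scale (adjusted p = 0.00246). Its promoter window from RefSeq (GRCm38.p6, chr11:54962891-54963190, minus strand, 250 bases before to 50 after the transcript start) is shown because it holds a match to the NF-kB motif (GGGA and CC with 4 free bases between them), in capitals, that begins 57 bases before the start:
Tnip1 promoter: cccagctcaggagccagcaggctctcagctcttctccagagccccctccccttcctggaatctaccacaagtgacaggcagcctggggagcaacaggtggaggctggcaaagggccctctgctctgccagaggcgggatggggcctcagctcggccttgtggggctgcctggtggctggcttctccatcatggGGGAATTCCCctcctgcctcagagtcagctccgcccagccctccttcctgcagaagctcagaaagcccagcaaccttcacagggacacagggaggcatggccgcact
Searched on both strands (GG and TCCC with 4 free bases between them on the other), and with no other motif searched, these letters were in 20.7% of 32851 promoter windows, in 29.8% of tested genes with a window, and in 88 of 251 falling genes (35.1%) and 19 of 68 rising genes (27.9%). Of the 5 called genes of the list with a window, Tnip1 alone held a match to this form of the motif. A match describes the letters in the window. The absence of a match says nothing of other forms of the motif, which were not searched in these windows, or of what binds elsewhere.

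Of the called genes whose groups did not overlap and that reached 10 CPM, the 10 with the largest fall included Saa3, Gpr84, Slc1a2 and Egfr. Saa3 (chr7:46711998-46715700), an acute phase serum amyloid that macrophages and stromal cells make, had 24.3, 98.4 and 262 CPM on day 3 and 4.53, 19.5 and 8.07 CPM on day 7. Each day 7 value was below each day 3 value, a fall of 3.75 ± 0.73 (adjusted p = 0.00275), and control tumors held 6.91 to 46.2 CPM on day 7. Gpr84, a receptor for medium-chain fatty acids on activated myeloid cells, fell by 3.57 ± 0.58 on the log2 scale (adjusted p = 0.000623), from 4.37, 20.2 and 41.4 CPM to 1.40, 3.08 and 1.61 CPM. Slc1a2, a glutamate transporter, fell by 3.68 ± 0.70 on the log2 scale (adjusted p = 0.00239), from 6.86, 22.01 and 28.6 CPM to 1.40, 1.03 and 1.61 CPM. Neither gene overlapped between the days. Egfr (chr11:16752203-16918158), the receptor for epidermal growth factor, was at 3 counts or fewer in each day 7 library. It had 97 counts over the 6 day 3 libraries and 4 over the 3 day 7 libraries, a ratio of 18.6 once scaled to library size (95% interval 7.04 to 69.7), an interval that covers counting error only. Predicted genes without a proper symbol took 5 of these 10 places (Gm25703, Gm48786, Gm15728, Gm4832 and 1110002J07Rik), and the last was Cstdc5, which was also at 3 counts or fewer in each day 7 library.

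Further genes that fell are given with the count of their list, here or in another paragraph, to be read beside the 3.31% of all tested genes called lower, and counts of 1 of 23 and 1 of 30 are close to that share. C3 (chr17:57203970-57228136), the central complement component, had 110.4, 328 and 479 CPM on day 3 and 84.4, 93.5 and 98.9 CPM on day 7, and it fell by 1.73 ± 0.32 on the log2 scale (adjusted p = 0.00165) without overlap. It was the 1 gene called of the 23 tested in the list of lipid-associated and complement macrophage genes, whose median was 0.07. Ptgs1, the constitutive cyclooxygenase, fell by 1.995 ± 0.47 on the log2 scale (adjusted p = 0.0132), the 1 gene called of 14 tested in the prostaglandin and leukotriene list. Tgm2, a transglutaminase counted among the genes of alternative activation, fell by 1.002 ± 0.23 on the log2 scale (adjusted p = 0.0118), and the chitinase-like Chil3, which belongs to that list and to the monocyte markers, fell by 1.55 ± 0.41 on the log2 scale (adjusted p = 0.0247). Hp, which encodes the hemoglobin scavenger haptoglobin and is also a monocyte marker, fell by 1.30 ± 0.38 on the log2 scale (adjusted p = 0.0421). With Chil3 it made the 2 lower calls among 10 monocyte markers, beside 1 higher (Ccr2). Plaur, the urokinase receptor, fell by 0.995 ± 0.26 on the log2 scale (adjusted p = 0.0243), and with Mmp9 it made 2 calls among 15 matrix proteases and their inhibitors. The transcription factors Egr3 and Klf4 fell by 1.87 ± 0.37 and 0.76 ± 0.22 (adjusted p = 0.00320 and 0.0413), 2 of 29 immediate early and stress genes. Slc16a3, the lactate exporter and 1 gene called of 30 of glycolysis and hypoxia, fell by 1.02 ± 0.29 on the log2 scale (adjusted p = 0.0376). Among 16 tested toll-like receptors and adaptors 2 fell, Tlr2 and the inhibitor Irak3 (-0.93 ± 0.27, adjusted p = 0.0441, and -1.64 ± 0.44, adjusted p = 0.0264), and 1 rose, Tlr3, given below. Scaled by library totals, Hp, Klf4, Slc16a3 and Tlr2, like Ccl3 above, kept their direction but were not called.

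**Figure D3:**
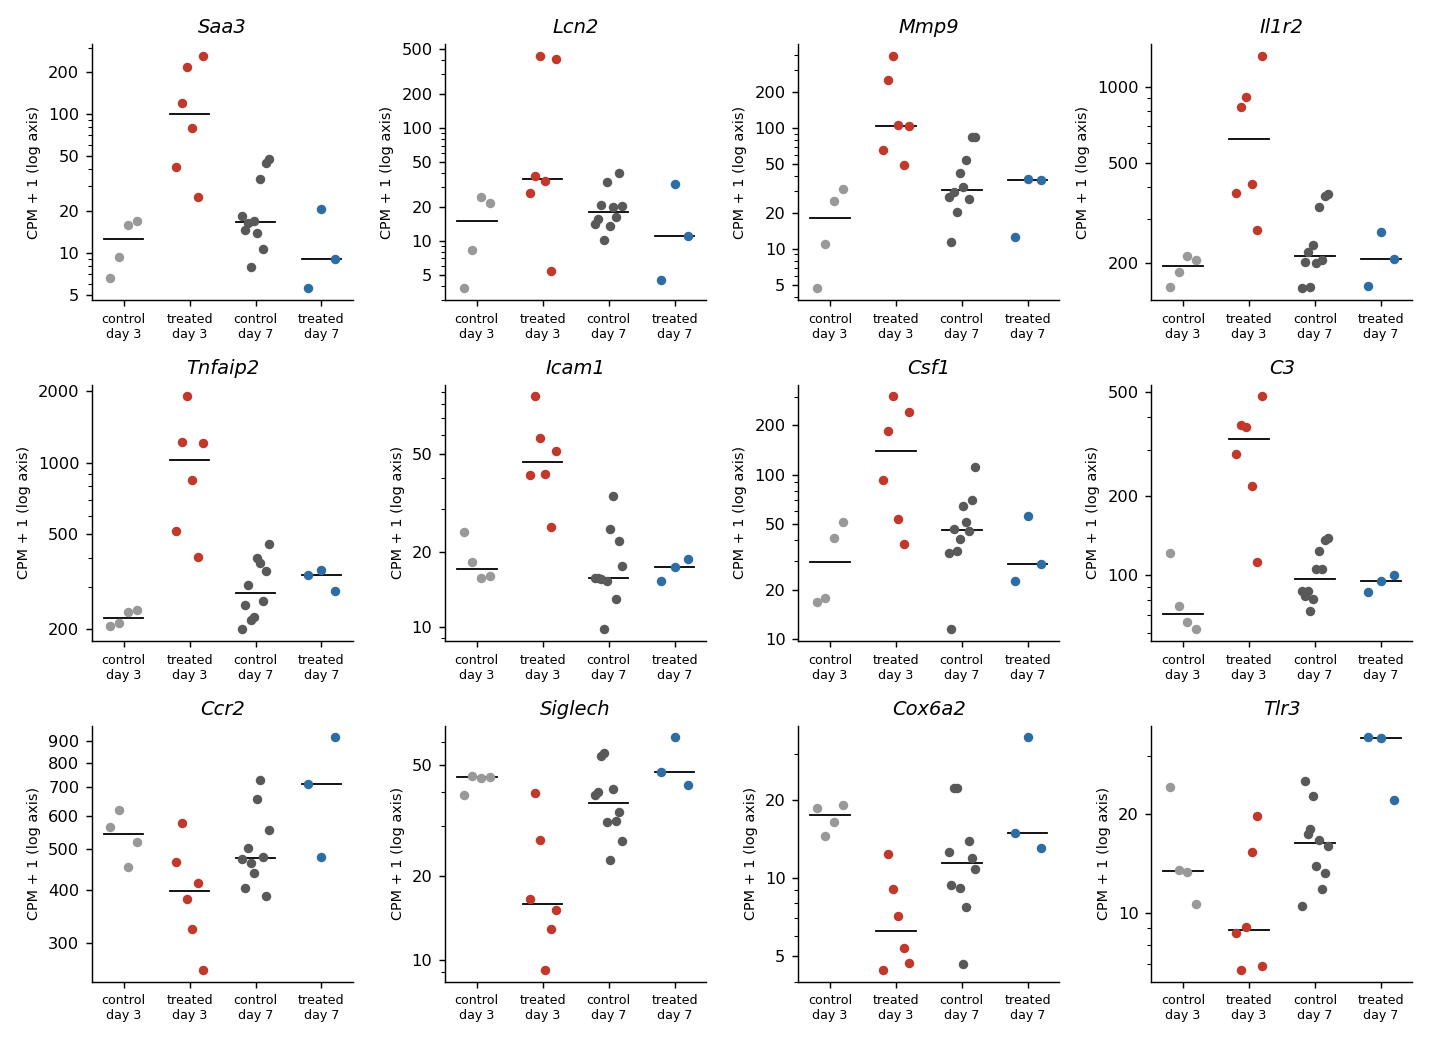
Points are libraries of control and treated tumors on both days, placed by group on the horizontal axis, and the vertical log axes give CPM plus 1 for 12 named genes, with the group median as a line. Tnfaip2, Icam1, C3, Saa3, Mmp9 and Il1r2 show each treated library of day 7 below each treated library of day 3, and Siglech, Cox6a2 and Tlr3 show the reverse.

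Dendritic cell genes were among those that rose. For plasmacytoid dendritic cells 3 of 6 tested markers rose and 0 fell, with a median of 1.26, beside 0.809% of all tested genes called higher. Siglech (chr7:55768178-55778925), a sialic acid-binding receptor of these cells, had 8.16, 14.8 and 38.6 CPM on day 3 and 46.04, 61.6 and 41.2 CPM on day 7. It rose by 1.37 ± 0.34 on the log2 scale (adjusted p = 0.0171), and the groups did not overlap. Ccr9, a chemokine receptor, rose by 1.16 ± 0.32 on the log2 scale (adjusted p = 0.0341) from 10.2, 15.9 and 31.5 CPM to 35.6, 66.8 and 34.7 CPM, and Cox6a2, a subunit of cytochrome oxidase, rose by 1.56 ± 0.46 on the log2 scale (adjusted p = 0.0449) from 3.43, 5.25 and 11.4 CPM to 13.95, 33.9 and 12.1 CPM, both without overlap. Klk1 gave 1.48 ± 0.45, adjusted p = 0.0538. The summed level of the 6 markers was 262 to 564 CPM on day 3 and 602 to 677 CPM on day 7, and 486 to 693 and 385 to 699 CPM in the control libraries of the same days. These calls were lost with any 1 of the 3 day 7 libraries left out (0 of 6 in each case), numbered 1 without replicate 4 or 6 of day 3, and were 0 among libraries of at least 1000000 counts. Between treated and control tumors, 4 of the 6 markers were called lower on day 3 (median -1.23), beside 2.8% of all tested genes. On day 7, 0 of the 6 were called (median 0.39).

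For conventional dendritic cells 2 of 12 markers rose, beside 0.809% of all tested genes, and 0 fell, with a median of 0.57. Clec9a, the receptor for dead cell actin on cross-presenting dendritic cells, had 6.12, 10.5 and 13.7 CPM on day 3 and 26.9, 21.6 and 15.7 CPM on day 7, without overlap, and it rose by 1.06 ± 0.29 on the log2 scale (adjusted p = 0.0312). Fscn1, the actin bundling protein of mature dendritic cells, rose by 0.97 ± 0.29 on the log2 scale (adjusted p = 0.0444) from 29.6, 42.5 and 76.7 CPM to 143, 83.2 and 60.1 CPM, with overlap through replicate 3 of day 7. These 2 calls became 0 with any 1 of the day 7 libraries, or replicate 2, 4 or 6 of day 3, left out, 1 without replicate 1 or 3 of day 3, and 0 among libraries of at least 1000000 counts. Tlr3, the sensor of double-stranded RNA, had 5.71, 7.89 and 18.7 CPM on day 3 and 33.1, 32.9 and 20.98 CPM on day 7. It rose by 1.47 ± 0.35 on the log2 scale (adjusted p = 0.0124) with no overlap. Ppm1k, the mitochondrial phosphatase that activates branched-chain amino acid breakdown, rose from 8.16, 10.95 and 12.1 CPM to 25.1, 32.9 and 22.2 CPM, by 1.31 ± 0.23 (adjusted p = 0.00119). Gcsam, a signaling adaptor known from germinal center B cells, rose by 1.91 ± 0.38 on the log2 scale (adjusted p = 0.00389), at 1.71, 2.46 and 4.08 CPM and 11.5, 10.3 and 8.88 CPM. Zc2hc1a, Sdhaf4, Tspyl3 and the small nuclear RNA genes Gm22317 and Gm25899 made up the rest of the 10 largest rises among called genes without overlap that reached 10 CPM. Of these 5 genes, the difference from the change in control tumors was called for Tspyl3 alone. It was 0.96 for Gm22317 and 0.57 for Gm25899.

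The lists of lymphocyte markers, macrophage markers and interferon-induced genes gave 0 calls in either direction, beside 4.12% of all tested genes called. None was called of 15 T cell, 12 NK cell, 9 B cell and 14 macrophage markers, of 11 genes of MHC class II and 20 of MHC class I presentation, of 22 interferon gamma and 29 type I interferon genes, of 24 cytotoxic effectors and of 35 cell cycle genes. All 12 NK cell markers were on the higher side, with a median of 0.62, and their summed level was 383 to 1573 CPM on day 3 and 1154 to 1850.0 CPM on day 7. Replicate 3 of day 3 was the lowest of them. T cell markers had a median of 0.19 and macrophage markers of 0.25. Among single genes, Cd8a, a chain of the CD8 co-receptor, had 30.7, 124 and 173 CPM on day 3 and 105, 165 and 182 CPM on day 7 (0.36 ± 0.35, adjusted p = 0.626), and Ifng gave -0.028 ± 0.32, adjusted p = 0.977. Gzmb, a granzyme of cytotoxic cells, gave 0.48 ± 0.52, and -0.12 without replicate 3 of day 7. Mki67, a proliferation marker, was lower on day 7 in each library (51.6, 63.7 and 74.2 CPM, and 42.9, 47.3 and 45.6 CPM), but its difference of -0.51 ± 0.20 missed the threshold (adjusted p = 0.147). Its list leaned the other way: of the 35 cell cycle genes 23 were on the higher side and 12 on the lower, with a median of 0.09. A gene that missed the threshold with 3 libraries on day 7 is not shown to be unchanged. The other lists without a call were those of plasma cells (3 tested genes), mast cells and basophils (2), eosinophils (3), fibroblasts (2), endothelial cells (4) and platelets (2), and, among pathways, T cell-attracting chemokines (10), the T cell receptor complex (18) and checkpoints with regulatory T cell genes (17). Of these, eosinophil genes had the lowest median, -1.44, and no skeletal muscle gene passed the filter.

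**Figure D4:**
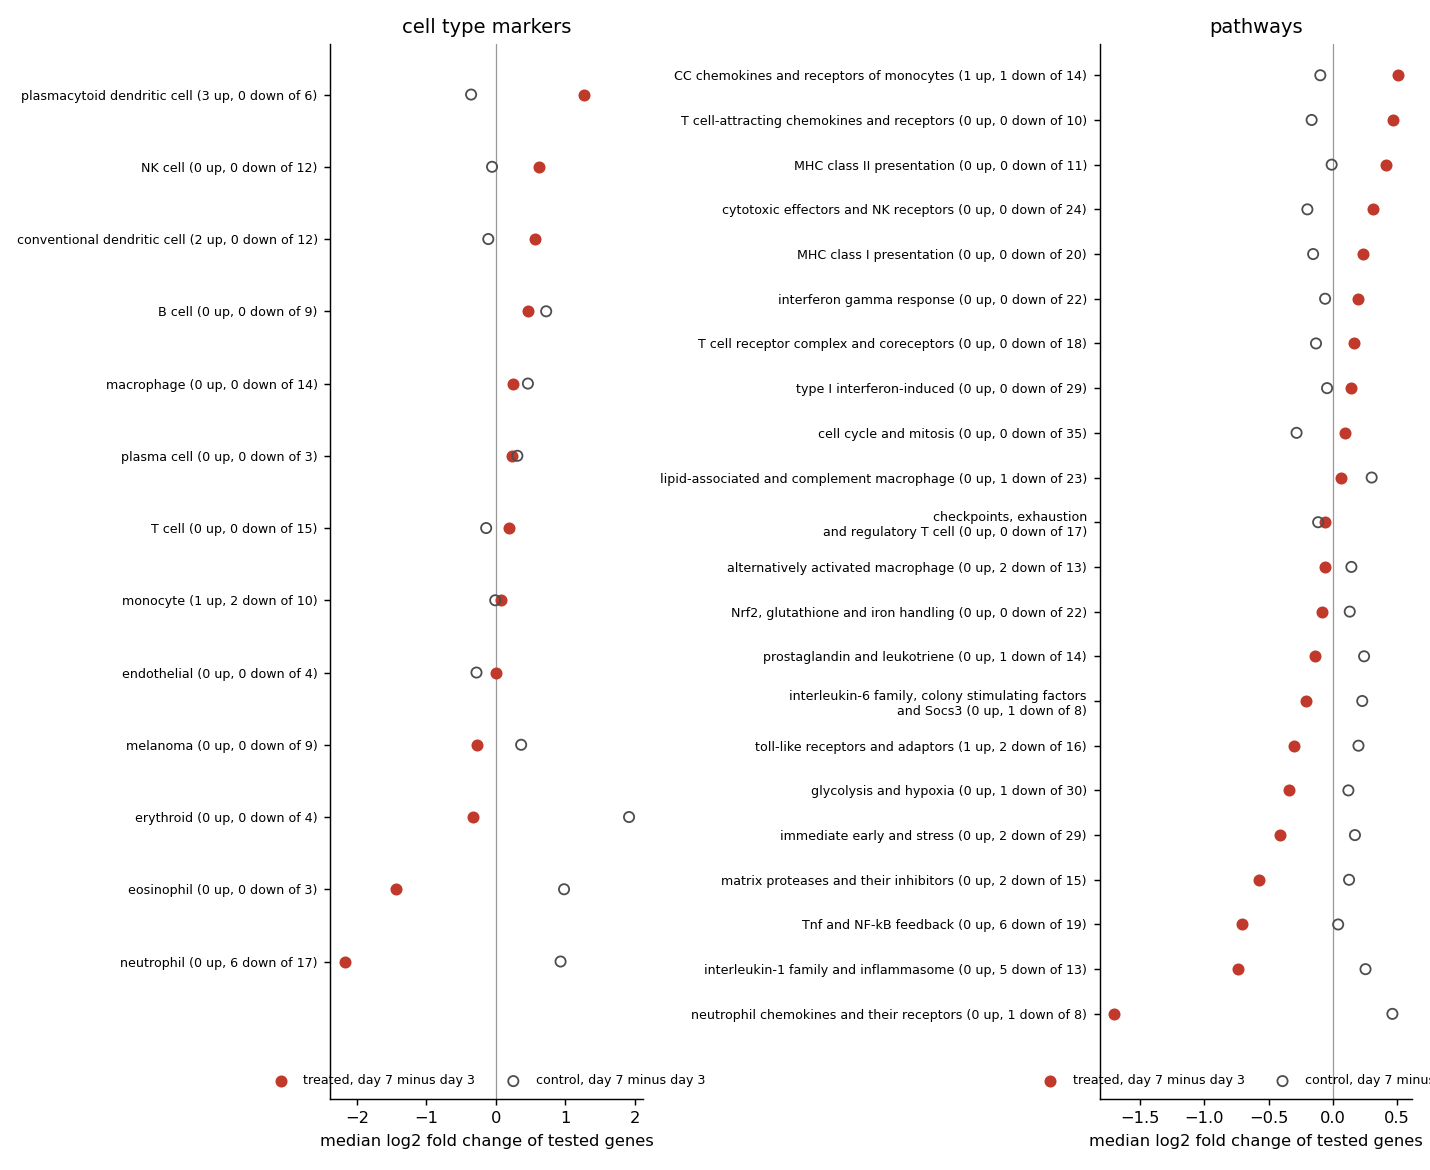
Each row is a list of marker genes (left) or of pathway genes (right) with at least 3 tested genes, the horizontal axis gives the median log2 fold change between day 7 and day 3 in treated (filled) and control (open) tumors, and the label gives how many of the tested genes rose and fell. Neutrophil markers have the lowest treated median (-2.18) and plasmacytoid dendritic cell markers the highest (1.26).

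Of 13 tested genes of alternative activation 2 fell (Tgm2 and Chil3) and 0 rose, with a median of -0.06, and of 22 tested genes of the Nrf2, glutathione and iron list 0 were called, beside 4.12% of all tested genes called in either direction and 3.31% called lower. Slc7a11, the cystine importer, had 211, 466 and 1655 CPM on day 3 and 129, 281 and 96.03 CPM on day 7, and its difference of -1.91 ± 0.58 was at the threshold (adjusted p = 0.0501). Compared with the change in control tumors its difference was -2.90 ± 0.74, which passed (adjusted p = 0.0275). Hmox1, the heme oxygenase, gave -0.046 ± 0.38, adjusted p = 0.966, and Arg1, which degrades arginine, -0.47 ± 0.53, adjusted p = 0.678. Retnla, a gene of alternative activation, ranged from 52.4 to 295 CPM on day 3 and held 76.7, 10.3 and 163 CPM on day 7, so the groups overlapped. In control tumors Retnla reached 49.5 CPM at most. Of markers of other cell types, the keratinocyte list had 1 tested gene, Sfn, which fell by 1.12 ± 0.24 on the log2 scale (adjusted p = 0.00582) while the keratins Krt5, Krt14 and Krt15 and loricrin (Lor) were at 0 in all 9 libraries. Red cell markers summed to 70.7 to 9771 CPM on day 3 and 253 to 4620.2 CPM on day 7, with 0 of 4 called, and their part in the results above was not tested.

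The difference from the change in control tumors was called for 6 of 17 neutrophil markers, all lower, beside 2.41% of all tested genes, and for 4 of 6 plasmacytoid dendritic cell markers, all higher, beside 0.258%. It was -3.73 ± 0.81 for Mmp9 (adjusted p = 0.0102), -4.65 ± 0.93 for Saa3 (adjusted p = 0.00600) and -2.08 ± 0.41 for C3 (adjusted p = 0.00498). Control tumors were on the opposite side between the days, with a median of 0.93 over the neutrophil markers, 0 of 17 of them called, and of 0.23 over the 372 falling genes. The 2 genes with the most negative difference, A530013C23Rik and Gm10388, are a long noncoding RNA and an unclassified transcript. Echdc3, an enoyl-CoA hydratase-like protein, followed them with -5.85 ± 1.27 (adjusted p = 0.0103). The most positive differences were those of Gcsam, Qpct, Cox6a2, Klk1 and Olfr77, between 1.82 and 2.10. Scaled by library totals, 75 of 235 calls were higher and 160 lower. The count of 300 became 30 without replicate 1 and 62 without replicate 3 of day 7, 171 and 186 without replicates 3 and 6 of treated day 3, 531 without replicate 5 of treated day 3, and 170, 162 and 195 without replicates 2, 3 and 4 of control day 3.

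The day change of treated and abscopal tumors differed for 10 genes (0.0889% of genes tested), all with the more negative change in treated tumors: Cebpe, Dhx40, Egfr, Ets2, Gm4430, P2ry13, Pde6h, Ppp1r3d, Slc1a2 and Tgm2. Cebpe, a transcription factor of granulocyte maturation, gave -3.79 ± 0.71 (adjusted p = 0.0403), and rose between the days in the abscopal tumors, where 0.8% of tested genes were called (2.47 ± 0.50, adjusted p = 0.0159). Ets2, a transcription factor, gave -1.43 ± 0.31 (adjusted p = 0.0452), with 640.1, 975 and 1844 CPM as the lowest, median and highest treated value of day 3 and 347 to 544 CPM on day 7. Dhx40, Pde6h, Ppp1r3d, Gm4430 and P2ry13, the last a receptor for ADP, are named because the count is small, after their values were seen. Treated and abscopal tumors of a mouse could not be matched, so they were taken as independent. No gene passed with limma-voom, with library totals or with the 4 groups fitted alone, and 0 passed with any 1 treated library of day 7 left out, so these 10 calls depended on the settings.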

How the data were processed

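RNA of flow-sorted CD45+ cells was sequenced by QuantSeq. Per the labels and the study's methods, the authors used Trim Galore 0.5.0 for trimming, STAR 2.6.0 for alignment to GRCm38, a Lexogen tool to collapse molecular identifiers and featureCounts for counting by gene. They deposited raw counts as whole numbers, with no normalization. The strand setting is not given in the sources used here, so counts of overlapping genes are uncertain, as are those of near-identical paralogs. Both tables have 55487 named lines, and lines sharing a symbol (234 lines, 114 symbols) were summed. A line without a name, which held the column total (100%), was left out, and 0 columns had no sample.

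Counts of all 34 CD45+ libraries (887798 to 2824959 each) entered a single fit with edgeR 4.0.16 (R 4.3.3), with TMM scaling, filterByExpr (at least 10 counts, and 15 in total), its quasi-likelihood test, a term for each of 6 groups and Benjamini-Hochberg adjustment at 0.05, which left 11249 genes. The study names no test for single genes. Alternatives were DESeq2 1.42.0, limma-voom (limma 3.58.1), library totals, no filter, only the groups compared, libraries of at least 1000000 counts, shared symbols left out, a replicate block and each library left out. No libraries agreed within sampling noise (smallest chi-square per degree of freedom 2.53). The floor was 3 counts in every library of a group. Positions are those of GENCODE vM21 (GRCm38), which matched 11062 tested genes. Principal components used log10 of CPM plus 1 and Z-scores. The fit was also run on simulated counts, with no outlying library and no difference between the tables built in, and that result is not given here.

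The comparison, the gene lists (18 of cell type markers and 22 of pathways) and the named genes were chosen with earlier results of these data known. Named genes were 30 fixed genes, the 10 rising and 10 falling genes with the largest change among those called (at least 10 CPM, no overlap), the 5 largest differences from control in each direction, and up to 3 called genes of each list. Genes outside this rule are said to be so or stand in a full list of calls.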

Additional observations from a re-analysis of the deposited data

Results flagged for a closer look

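Single treated libraries of day 3 lay far from the other 5 by Dixon's ratio for 10 of 82 named genes tested and for 6 of 18 summed marker levels. The ratio passes by chance in about 1 group in 20 if values are normally distributed. It was taken here on CPM without logs, and genes high in the same library are not independent, so that rate need not hold. Replicate 3 accounted for 8 of the genes, as the highest library in each: S100a8 (19282 CPM), S100a9 (14549 CPM), Arg1 (2214 CPM), Slc7a11 (1655 CPM), Cstdc5 (51.6 CPM), Il1rap (88.8 CPM), Slc16a3 (905 CPM) and Tlr2 (773 CPM). Replicate 6 accounted for the others, Echdc3 (32.6 CPM) and Klf4 (347 CPM), being the highest for Echdc3 and the lowest for Klf4. Among the summed marker levels replicate 3 was the highest for those of neutrophil (42158 CPM), plasma cell (184 CPM), erythroid (9771 CPM) and platelet (1728 CPM), and the exceptions were endothelial in replicate 1 (150.0 CPM) and skeletal muscle in replicate 6 (7.41 CPM). The groups of 3 libraries on day 7 are too small for this check.

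The day change differed between treated and control tumors, in a test of the difference itself, for 300 genes, and between treated and abscopal tumors for 10. Of the named genes 42 were among the 300. The difference, treated minus control on the log2 scale, was below -4.5 for A530013C23Rik (-6.17), Gm10388 (-6.16), Echdc3 (-5.85), Gm4832 (-5.76), Cstdc5 (-5.70), Egfr (-5.69), Gm25703 (-5.31), Gm15728 (-5.22), Slc1a2 (-5.17), Gm48786 (-5.02) and Saa3 (-4.65). It lay between -4.5 and -2 for 1110002J07Rik (-4.28), Lcn2 (-4.14), Gpr84 (-4.06), Mmp9 (-3.73), Slc7a11 (-2.90), Csf1 (-2.87), Ptgs1 (-2.74), Egr3 (-2.58), Il1rap (-2.29), Tnfaip2 (-2.09), C3 (-2.08) and Il1r2 (-2.07). Smaller negative differences were those of Hp (-1.98), Ccl3 (-1.77), Icam1 (-1.64), Ccrl2 (-1.40), Tgm2 (-1.40), Slc16a3 (-1.36), Sfn (-1.17), Casp4 (-1.14), Tnip1 (-1.09) and Klf4 (-1.005). Positive differences were those of Tspyl3 (1.32), Ppm1k (1.53), Siglech (1.60), Ccr9 (1.64), Olfr77 (1.82), Klk1 (2.04), Cox6a2 (2.04), Qpct (2.05) and Gcsam (2.10).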

How the results depend on the processing

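The 463 genes called between day 7 and day 3 in treated tumors were 641 with DESeq2 and 383 with limma-voom, and 456 and 354 of the 463 were among them. Of the 51 named genes that were called, 0 changed direction under any alternative, and Egfr, Gm48786 and Slc1a2 were called under every one. The count of genes called moved by over 1.5 times in these cases. With DESeq2, it was 54 for treated minus abscopal change and 0 for control day 7 against day 3. Among libraries of at least 1000000 counts, it was 0 for treated minus abscopal change and 0 for control day 7 against day 3. With library totals, it was 0 for treated minus abscopal change and 1743 for treated against control on day 3. With limma-voom, it was 0 for treated minus abscopal change, 142 for treated minus control change and 0 for control day 7 against day 3. Without a filter on low counts, it was 287 for treated minus abscopal change, 627 for treated minus control change, 106 for control day 7 against day 3, 22 for treated against control on day 7 and 770 for treated day 7 against day 3. With only the compared groups in the fit, it was 0 for treated minus abscopal change, 174 for treated minus control change, 0 for control day 7 against day 3, 451 for treated against control on day 3 and 10 for treated day 7 against day 3. With each library left out in turn, it was 0 to 101 for treated minus abscopal change, 30 to 531 for treated minus control change, 0 to 1 for control day 7 against day 3, 651 to 1526 for treated against control on day 3, 0 to 1 for treated against control on day 7 and 46 to 784 for treated day 7 against day 3. The cause of these shifts was not tested. Counts near the floor of 3 a library, and 1 treated day 7 library under 1000000 counts, limit the low genes.

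The replicate numbers were shared by treated libraries of both days, but same-numbered libraries did not deviate together (correlations 0.10, -0.10 and 0.07), so the samples share only a number. With the replicate number as a block, 563 genes were called for treated day 7 against day 3. The count was also 24 for treated minus abscopal change, 112 for treated minus control change and 0 for control day 7 against day 3. With this block the sign changed for C1qa against control (0.10), Hmox1 (0.29), Ifit1 against control (-0.039), Ifit1 (-0.16), Ifng (0.12), Isg15 against control (-0.13), Nos2 against control (1.17), Nos2 (0.40) and Trem2 against control (0.0039). Only replicate 3 of day 7 correlated best with its own number.

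In 76 cases, over 14 genes that were not called, a log2 fold change of day 7 against day 3, or its difference from that in control tumors (named with "against control"), changed sign, to these values. With DESeq2, it was Ifit1 (-0.028). Among libraries of at least 1000000 counts, these were Cd3e (-0.16), Isg15 (0.19), Mmp12 against control (-0.041) and Ptprc against control (0.0043). With library totals, these were C1qa against control (0.034), Hmox1 (0.18), Ifng (0.098), Isg15 (0.12), Mki67 against control (0.058), Nos2 against control (0.088) and Ptprc against control (0.18). With limma-voom, these were Hmox1 (0.088), Ifng (0.14), Isg15 (0.076), Mmp12 against control (-0.028), Nos2 against control (0.64), Nos2 (0.56) and Ptprc against control (0.0098). Without a filter on low counts, these were Ifng (0.018), Isg15 (0.0079) and Ptprc against control (0.026). With only the compared groups in the fit, it was Ifit1 (-0.031). With single libraries left out, the log2 value spanned -0.10 to 0.23 (Apoe), -1.23 to 0.18 (Arg1 against control), -0.65 to 0.34 (Arg1), -0.27 to 0.046 (C1qa against control), -0.070 to 0.33 (Cd3e against control), -0.16 to 0.24 (Cd3e), -0.12 to 0.75 (Gzmb), -0.18 to 0.25 (Hmox1), -0.17 to 0.24 (Ifit1), -0.23 to 0.12 (Ifng), -0.21 to 0.25 (Isg15), -0.32 to 0.47 (Mmp12 against control), -0.62 to 0.46 (Nos2 against control), -0.53 to 0.38 (Nos2), -0.088 to 0.060 (Ptprc against control) and -0.027 to 0.098 (Ptprc).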
